A study of Mus musculus with 18 samples.

Results

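The genes described here are 36 genes of mitosis and DNA replication, chosen by name from earlier work on these data and taken from the 19736 gene names of a table of RibOxi-seq counts. All 36 were in the table, with 7815 counts at positions without the mark that the table calls mispriming and a further 1153 counts at marked positions. RibOxi-seq counts the 3′ ends of RNA fragments that survive chemical oxidation and elimination, a treatment that spares ends carrying a 2′-O-methyl group. The cells were 4T1, a mouse breast cancer line, and the study asked what follows from loss of Snord67, a small nucleolar RNA that guides 2′-O-methylation of the U6 spliceosomal RNA.

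The study compared 3 genotypes, with 3 biologic replicates of the oxidized library each. They were 4T1 WT, Snord67KO-1 and Snord67KO-2, and each knockout line was 1 clone grown from a single cell after CRISPR double nicking. All of the lines, WT included, came from 4T1 cells carrying a lentivirus for mCherry and Renilla luciferase and kept under puromycin. With 1 clone for each knockout line, loss of Snord67 and any other property of a clone cannot be told apart within a clone. The 9 control libraries of the series were not analysed here.

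Before a cell divides it copies its DNA once and then separates the copies. The MCM complex is the helicase that unwinds DNA at the fork, PCNA is the clamp that holds polymerases on it, and ribonucleotide reductase and thymidylate synthase supply nucleotides. Entry into mitosis depends on the kinase CDK1 with cyclins A and B, condensin compacts the chromosomes, and kinesins, PRC1 and anillin build the spindle midzone and the cleavage furrow. In proliferating cells many of the mitosis genes peak in G2 and M phase, while many of the replication genes peak around the start of S phase.

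WT libraries held 625093 to 737219 counts in total, Snord67KO-1 libraries 491836 to 686776, and Snord67KO-2 libraries 212463 to 423278, so the Snord67KO-2 values rest on the fewest counts. The ribosomal RNA precursor Rn45s took 19.3% to 32.4% of a library. Marked positions took 17.8% of WT replicate 2 and 7.22% of Snord67KO-1 replicate 2, against 1.38% to 5.08% of the other libraries. The table names no positions Snord67, so the deletion could not be read from it, and Ckap5, in whose intron Snord67 lies, had 55.2 ± 25.5 CPM (counts per 1000000 counts of the library; mean ± SD, n = 3) in WT, 40.0 ± 0.677 CPM in Snord67KO-1 and 44.3 ± 2.58 CPM in Snord67KO-2. The epithelial markers Epcam, Cdh1, Krt7, Krt8, Krt18 and Krt19 had counts in every library. Summed, these 6 markers ran from 341 to 538 CPM in WT, 886 to 964 CPM in Snord67KO-1 and 670 to 806 CPM in Snord67KO-2. The listed markers of fibroblasts ran from 1.57 to 8.14 CPM in WT, 13.1 to 26.7 CPM in Snord67KO-1 and 0 to 2.71 CPM in Snord67KO-2, with 6 of 7 markers in the table. Endothelial markers ran from 4.70 to 8.0, 14.6 to 40.1 and 0 to 10.8 CPM, all 4 markers being in the table, and leukocyte markers from 1.60 to 4.70, 1.46 to 22.3 and 0 to 9.45 CPM, with 5 of 6. None of these 15 non-epithelial genes had a count in all libraries, Lyz2 and Col3a1 had 1 count each in the whole table, and the part of any of them in the differences below was not tested.

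A gene total here is the sum of a gene's unmarked counts in a library. It mixes how much RNA there was with how much of it survived the treatment, and these cannot be told apart in the oxidized libraries alone. Most of the members' counts lay in mature mRNA: 68.7% in coding sequence, 20.03% in 3′ UTRs and 9.94% in introns. For the other protein-coding genes tested, the intron share was 59.5% of the summed counts, and the median per gene was 13.8% against 5.29% for the members tested. Of the members' intron counts, a large portion came from Kif11, and without that gene the share was 6.15%. Counts were spread thinly, over 6451 positions of the members.

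Summed over the 36 genes, the levels were 1232, 1822 and 1035 CPM in WT, 1977, 1923 and 2079 CPM in Snord67KO-1, and 1210, 1318 and 1529 CPM in Snord67KO-2. The 3 Snord67KO-1 libraries were all above the WT libraries, and the Snord67KO-2 libraries lay within the WT range. With marked counts included, WT replicate 2 stood at 2611 CPM, above every Snord67KO-1 library (2126 to 2261 CPM), and it was also the highest of all, at 2899 CPM, when unmarked counts outside Rn45s were taken as the total. The 23 mitosis genes held most of that difference, at 856 ± 320 CPM in WT, 1470 ± 48.6 CPM in Snord67KO-1 and 856 ± 119 CPM in Snord67KO-2 (SD, n = 3). The 12 genes of replication and nucleotide supply had 417 ± 100.4, 375 ± 12.4 and 358 ± 59.7 CPM, which differed by less than the spread between the WT libraries. Scaled by library totals in this way, the median gene tested lay 0.25 above WT on the log2 scale in Snord67KO-1. On the scale used for the tests below, 9 of these 12 genes were tested. Their median log2 fold change was -0.42 in Snord67KO-1 and 0.03 in Snord67KO-2, with 2 and 5 of the 9 positive. For the 19 mitosis genes tested, the medians were 0.85 and 0.30. Aurka, Incenp and Aspm of these, and Rrm2 of the 9, had enough counts for the test only with Snord67KO-1 libraries. The medians are therefore a description. WT replicate 2 was the highest WT library, in part through 1 position of Ncapg, described below. Without that position the 36 genes had 1211, 1432 and 1032 CPM in WT. With Ncapg and Kif11 left out, the mitosis genes had 598 ± 64.4 CPM in WT, 1246 ± 108 CPM in Snord67KO-1 and 732 ± 101 CPM in Snord67KO-2.

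**Figure D1:**
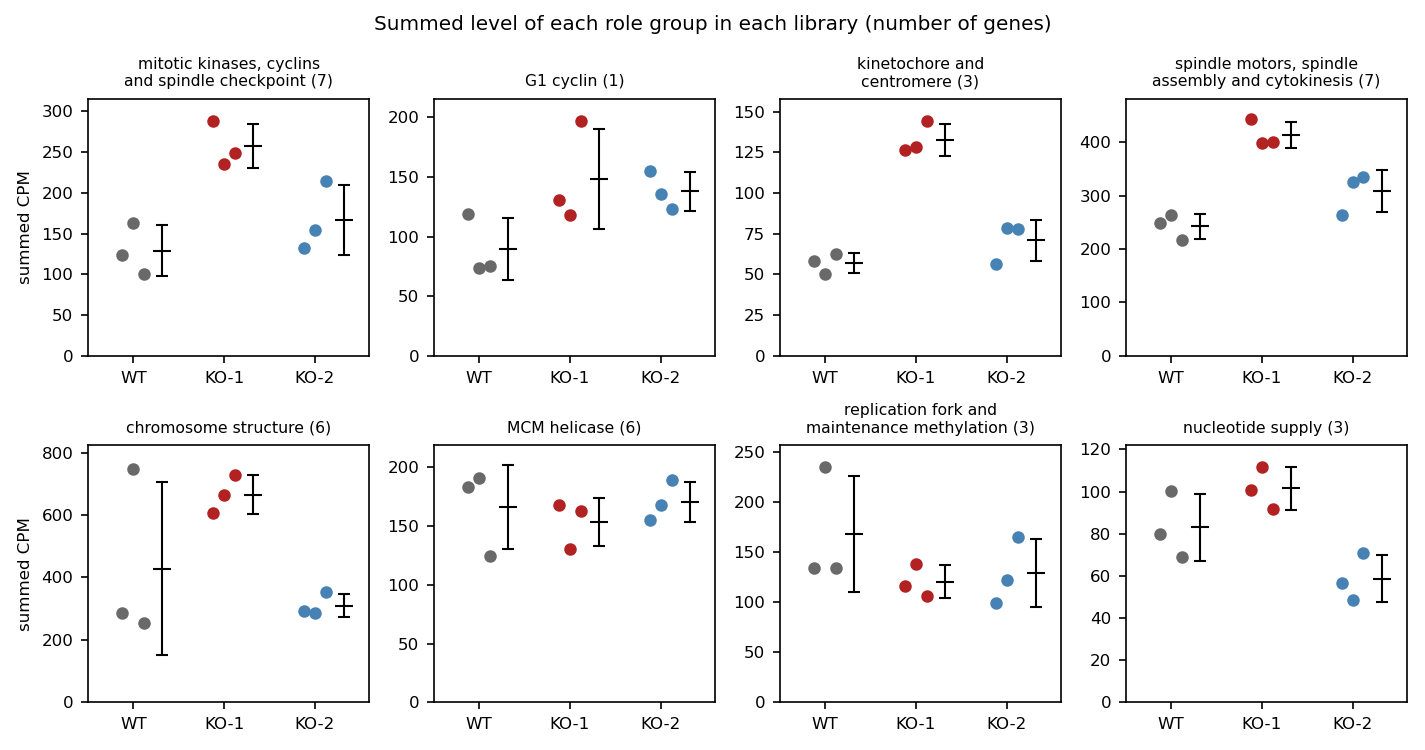
Summed CPM of each role group (vertical axis) in the 3 WT, 3 Snord67KO-1 and 3 Snord67KO-2 libraries, 1 point per library, with the mean and SD as a bar beside the points. The kinetochore genes run from 50.1 to 62.4 CPM in WT and 126 to 144 CPM in Snord67KO-1, the MCM genes overlap between all genotypes, and the high WT point of the chromosome structure genes (747 CPM) is replicate 2.

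Per kilobase of annotated exon, Pcna (25.2 CPM per kb, mean of 9 libraries) and Smc4 (24.6) were the most abundant of the 33 genes whose rows covered at least 50% of the exon length, followed by Ncapg (15.7), Ccna2 (15.2) and Anln (13.0), and the least abundant was Aspm (1.87). The Ncapg level was carried by 1 position, without which it was 6.77 CPM per kb and ranked 15 of 33. Reads of Pcna may be shared with its annotated pseudogenes Pcna-ps1 and Pcna-ps2, and those of Tyms with Tyms-ps. The rows of Ccnd1, Tpx2 and Mcm7 covered 46.4%, 10.3% and 15.7% of the exon length, those of Ccnd1 ending beside the nested gene Mir3962, so their totals are partial. Plk1, Bub1b, Tpx2, Ncapd2, Mcm7, Lig1 and Tyms, 7 genes, did not reach 10 counts in 3 libraries and were not tested. Their mean levels over the 3 libraries of a genotype lay between 0.788 CPM (Tpx2 in Snord67KO-2) and 21.2 CPM (Bub1b in Snord67KO-2). Of the 29 tested, Aurka, Incenp, Aspm and Rrm2 passed that minimum only with the help of Snord67KO-1 libraries. Counts and medians over the genes that passed are thus a description.

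The first comparison was between each knockout clone and WT, by edgeR's quasi-likelihood test over 5748 genes with Benjamini-Hochberg adjustment. In Snord67KO-1, 12 of the 29 members tested passed an adjusted p of 0.05, 10 higher and 2 lower, beside 20.2% of all genes tested (11.5% higher and 8.66% lower). The higher members were Smc4, Ccnb1, Cenpf, Prc1, Aspm, Cenpe, Mki67, Rrm2, Ccna2 and Top2a, and the lower members were Pcna and Dnmt1. In Snord67KO-2, 1 of 29 passed, Ccnb1, which was higher, beside 3.98% of all genes (3.06% higher and 0.922% lower). For the average of both clones, 5 of 29 passed, all higher (Smc4, Ccnb1, Prc1, Cenpf and Aspm), beside 12% of all genes (6.61% higher and 5.41% lower). These comparisons share the WT libraries. On simulated data, changes of 2-fold were called in 28% of cases in Snord67KO-1 and 16% in Snord67KO-2, so the numbers of calls are not directly comparable. The median log2 fold change of the members was 0.38 in Snord67KO-1 and 0.14 in Snord67KO-2, against -0.02 and -0.02 for all genes. DESeq2 called 5, 0 and 3 members in the same comparisons, all higher, as it called fewer genes overall (571 in Snord67KO-1 against 1159 by edgeR). Its own filter left 6 of the 29 members with no adjusted p in Snord67KO-2 (Aspm, Aurka, Bub1, Incenp, Kif20b and Rrm2), none of which edgeR called there. When libraries were scaled by their totals alone, the median of all genes moved up by 0.27 on the log2 scale in Snord67KO-1, 997 of 1194 called genes were higher against 661 of 1159, and 12 members were higher and none lower.

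**Figure D2:**
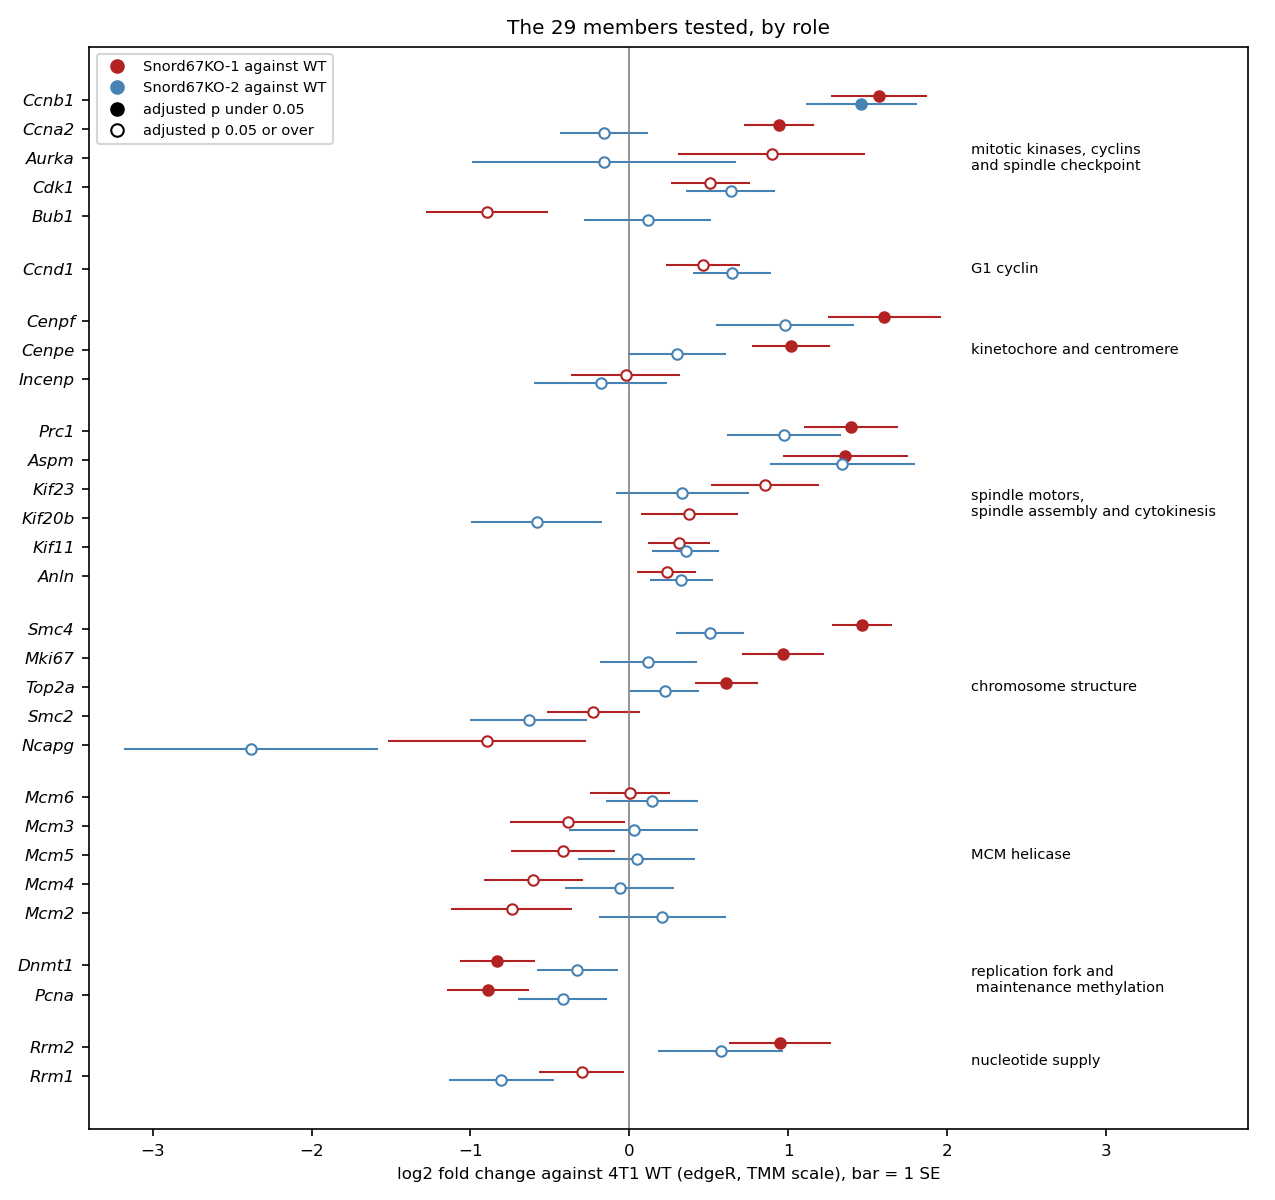
Log2 fold change against WT on edgeR's TMM scale (horizontal axis, bar = 1 SE) for the 29 members tested, grouped by role, with Snord67KO-1 in red and Snord67KO-2 in blue and filled points for an adjusted p under 0.05. Filled red points stand at 0.61 to 1.61 for 10 members and at -0.89 and -0.83 for Pcna and Dnmt1, and the single filled blue point is Ccnb1 at 1.46.

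Among the mitotic kinases, cyclins and checkpoint genes, 5 of 7 were tested, and 2 rose in Snord67KO-1 and 1 in Snord67KO-2. Beside them, 20.2% of all genes tested were called in Snord67KO-1 (11.5% higher) and 3.98% in Snord67KO-2 (3.06% higher). Ccnb1 encodes cyclin B1, the partner of CDK1 at entry into mitosis. It had 14.9, 14.1 and 8.0 CPM in WT, 44.5, 36.6 and 52.4 CPM in Snord67KO-1, and 37.7, 32.5 and 33.1 CPM in Snord67KO-2, so all 6 knockout libraries stood above all WT libraries. Its log2 fold change was 1.57 ± 0.30 (SE; edgeR adjusted p = 0.00105) in Snord67KO-1 and 1.46 ± 0.35 (edgeR adjusted p = 0.0208) in Snord67KO-2. In Snord67KO-2 that call was lost without any 1 of the 3 Snord67KO-2 libraries, without WT replicate 3, with no filter, with marked positions included and in DESeq2. Annotated relatives of Ccnb1 include the pseudogene Ccnb1-ps, with which reads may be shared.

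Ccna2 encodes cyclin A2, which acts in S phase and G2. It had 48.8, 56.3 and 28.8 CPM in WT, 101, 106 and 102 CPM in Snord67KO-1, and 32.9, 29.8 and 52.0 CPM in Snord67KO-2. Snord67KO-1 stood apart from both other genotypes, which overlapped. The log2 fold change was 0.94 ± 0.22 (edgeR adjusted p = 0.00505) in Snord67KO-1 and -0.16 ± 0.28 (edgeR adjusted p = 0.829) in Snord67KO-2, and the call was lost with marked positions included. Of its counts, 101 of 320 lay where the 3′ end of the gene overlaps Exosc9 on the other strand, and the table gives no strand.

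Cdk1, the kinase itself, had 24.4, 32.9 and 27.2 CPM in WT, 56.4, 40.7 and 46.6 CPM in Snord67KO-1, and 28.2, 46.1 and 49.6 CPM in Snord67KO-2. The log2 fold changes were 0.51 ± 0.25 (edgeR adjusted p = 0.158) and 0.64 ± 0.28 (edgeR adjusted p = 0.228), neither past the threshold. With its 154 marked counts included they were -0.23 ± 0.42 and -0.46 ± 0.48 (edgeR adjusted p = 0.762 and 0.656), so the direction turned, and the rows of Cdk1 covered 52.4% of its exon length. Aurka and Bub1, a spindle pole kinase and a checkpoint kinase, did not pass in either clone. The log2 fold change of Bub1 in Snord67KO-1 ran from -1.14 to -0.61 over 22 alternative fits. With marked positions included it was called lower there (edgeR adjusted p = 0.0228). The 16 of 18 WT counts of Aurka that came from replicate 2 leave its WT level poorly fixed (9.33 ± 13.6 CPM).

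Ccnd1, cyclin D1 of the G1 phase, had 119, 73.6 and 75.2 CPM in WT, 131, 118 and 197 CPM in Snord67KO-1, and 155, 136 and 123 CPM in Snord67KO-2. All Snord67KO-2 libraries were above WT, and its log2 fold changes of 0.46 ± 0.23 (edgeR adjusted p = 0.166) and 0.65 ± 0.25 (edgeR adjusted p = 0.157) did not pass. All 598 of its unmarked counts fell in its 3′ UTR, and 511 of them lay within LTO1 on the other strand. With its 441 marked counts included, the direction turned, at -0.03 ± 0.27 and -0.07 ± 0.28 (edgeR adjusted p = 0.957 and 0.935).

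Of the kinetochore and centromere genes, 2 of 3 rose in Snord67KO-1, beside 11.5% of all genes tested called higher (20.2% in either direction). None passed in Snord67KO-2 by edgeR, beside 3.98% of all genes, or by DESeq2, which gave Incenp no adjusted p there. In Snord67KO-2, 1 had a raw edgeR p under 0.05. Cenpe, a kinetochore motor, had 23.1, 28.2 and 24.0 CPM in WT, 66.8, 63.0 and 53.9 CPM in Snord67KO-1, and 18.8, 32.5 and 35.4 CPM in Snord67KO-2. Its log2 fold change was 1.02 ± 0.25 (edgeR adjusted p = 0.00612) in Snord67KO-1 and 0.30 ± 0.31 (edgeR adjusted p = 0.666) in Snord67KO-2, and DESeq2 did not make the call. Cenpf, a large kinetochore protein that accumulates in G2, had 13.6, 7.83 and 19.2 CPM in WT, 34.1, 48.8 and 67.0 CPM in Snord67KO-1, and 18.8, 27.1 and 30.7 CPM in Snord67KO-2. Its Snord67KO-1 libraries did not overlap WT, the lowest Snord67KO-2 library did, and its log2 fold changes were 1.61 ± 0.35 (edgeR adjusted p = 0.00293) and 0.98 ± 0.44 (edgeR adjusted p = 0.234). Incenp, a subunit of the chromosomal passenger complex, had 18.3 ± 3.88 CPM in WT, 21.6 ± 4.72 CPM in Snord67KO-1 and 16.5 ± 4.10 CPM in Snord67KO-2.

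Among the genes of the spindle and cytokinesis, 6 of 7 were tested. In Snord67KO-1, 2 rose, beside 11.5% of all genes tested called higher (20.2% in either direction). None passed in Snord67KO-2 by edgeR, beside 3.98% of all genes, or by DESeq2, which gave Aspm and Kif20b no adjusted p there. In Snord67KO-2, 2 had a raw edgeR p under 0.05. Prc1 encodes the protein that bundles midzone microtubules. It had 14.9, 26.6 and 11.2 CPM in WT, 46.0, 54.9 and 65.5 CPM in Snord67KO-1, and 32.9, 38.0 and 30.7 CPM in Snord67KO-2, with all 6 knockout libraries above WT. The log2 fold change was 1.40 ± 0.30 (edgeR adjusted p = 0.00231) in Snord67KO-1 and 0.97 ± 0.36 (edgeR adjusted p = 0.138) in Snord67KO-2. The gene lies wholly within the span of Rccd1, annotated on the other strand.

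Aspm, a spindle pole protein, had 6.78, 7.83 and 14.4 CPM in WT, 26.7, 34.6 and 29.1 CPM in Snord67KO-1, and 32.9, 21.7 and 21.3 CPM in Snord67KO-2. Here too every knockout library was above every WT library, on 98 counts in all. The log2 fold changes were close in both clones, 1.36 ± 0.39 (edgeR adjusted p = 0.0188) and 1.34 ± 0.46 (edgeR adjusted p = 0.107). The call in Snord67KO-1 was lost without WT replicate 1, without WT replicate 2 and in DESeq2. Aspm reached the count minimum only with Snord67KO-1 libraries, where it was high, so its calls are a description. Without any 1 Snord67KO-1 library it fell below the minimum and was not tested, so it had 18 alternative fits.

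Anln encodes anillin, a scaffold of the cleavage furrow, and was the most abundant of this group by CPM. Its levels of 97.5 ± 9.47 CPM in WT, 138 ± 31.0 CPM in Snord67KO-1 and 118 ± 20.3 CPM in Snord67KO-2 (SD, n = 3) gave log2 fold changes of 0.24 ± 0.18 and 0.33 ± 0.20 (edgeR adjusted p = 0.399 and 0.411). The kinesin gene Kif23 had a log2 fold change of 0.85 ± 0.34 (edgeR adjusted p = 0.0823) in Snord67KO-1, and Kif20b one of 0.38 ± 0.30 (edgeR adjusted p = 0.414). For Kif11, the motor that pushes spindle poles apart, the gene total was mostly not from its own exons. Of its 447 counts, 72.5% were intronic, with 83 counts in the processed pseudogene AC137605.4 and 185 in AC137605.6, both lying in its introns. Its 123 exon counts gave 23.1, 14.1 and 19.2 CPM in WT, 43.0, 30.5 and 36.4 CPM in Snord67KO-1, and 9.41, 10.8 and 23.6 CPM in Snord67KO-2. With exon positions alone, chosen as an alternative after the counts were seen, its log2 fold change in Snord67KO-1 was 0.82 ± 0.30 (edgeR adjusted p = 0.0617), compared with 0.31 ± 0.20 (edgeR adjusted p = 0.284) for the gene total.

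**Figure D3:**
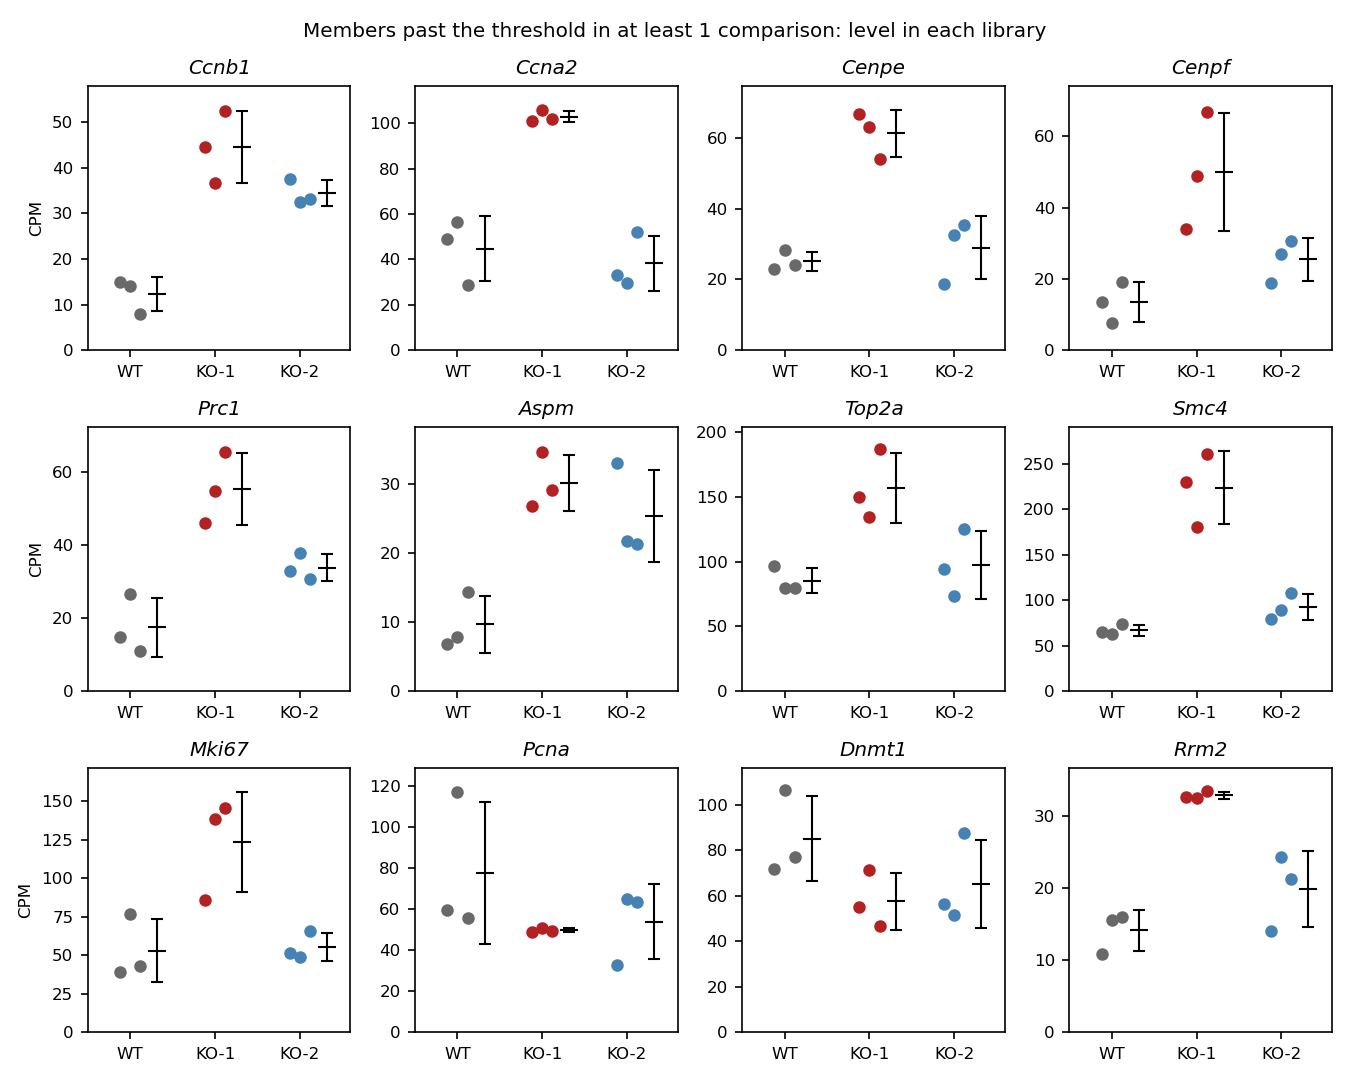
CPM in each library (points; vertical axis from 0) for the 12 members past an adjusted p of 0.05 in at least 1 comparison, with the mean and SD of each genotype as a bar. Ccnb1, Prc1 and Aspm are above WT in all 6 knockout libraries, Ccna2 stands at a mean of 103 CPM in Snord67KO-1 against 44.7 in WT and 38.3 in Snord67KO-2, and Pcna has 1 WT library at 117 CPM.

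Of the chromosome structure genes, 5 of 6 were tested. In Snord67KO-1, 3 rose, beside 11.5% of all genes tested called higher (20.2% in either direction). None passed in Snord67KO-2 by edgeR, beside 3.98% of all genes, or by DESeq2. In Snord67KO-2, 2 had a raw edgeR p under 0.05. Smc4, a core ATPase of condensin, had 65.1, 62.6 and 73.6 CPM in WT, 230, 181 and 261 CPM in Snord67KO-1, and 80.0, 89.5 and 109 CPM in Snord67KO-2. Every knockout library was above WT and every Snord67KO-1 library was above every Snord67KO-2 library. The log2 fold change was 1.47 ± 0.19 (edgeR adjusted p = 2.73e-05) in Snord67KO-1 and 0.51 ± 0.21 (edgeR adjusted p = 0.211) in Snord67KO-2. Of the other condensin genes tested, Smc2 and Ncapg did not pass. For Ncapg the log2 fold changes of -0.90 ± 0.63 and -2.38 ± 0.80 (edgeR adjusted p = 0.339 and 0.101) turned on WT replicate 2, without which they were 1.30 ± 0.36 (edgeR adjusted p = 0.0109) and -0.18 ± 0.47 (edgeR adjusted p = 0.916). With no filter Ncapg was called lower in Snord67KO-1 (-1.02) and Snord67KO-2 (-2.48), and in Snord67KO-2 it was also called lower with the replicate number as a block (-1.98) and without WT replicate 3 (-2.89). Smc2, its ATPase partner, had a log2 fold change of -0.23 ± 0.29 (edgeR adjusted p = 0.639) in Snord67KO-1 and -0.63 ± 0.37 (edgeR adjusted p = 0.388) in Snord67KO-2, with 28.4 ± 6.02, 28.6 ± 9.82 and 18.1 ± 1.37 CPM in the 3 genotypes.

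Mki67, the gene of the proliferation antigen Ki-67, had 39.3, 76.7 and 43.2 CPM in WT, 86.1, 138 and 146 CPM in Snord67KO-1, and 51.8, 48.8 and 66.2 CPM in Snord67KO-2. Its Snord67KO-1 libraries were above WT (log2 fold change 0.97 ± 0.26, edgeR adjusted p = 0.0110) and its Snord67KO-2 libraries fell within the WT range (0.12 ± 0.30, edgeR adjusted p = 0.890). The call in Snord67KO-1 was lost in DESeq2, without WT replicate 1 and without Snord67KO-1 replicate 2. Top2a, the topoisomerase that untangles sister chromatids, had 96.3, 79.8 and 80.0 CPM in WT, 150, 134 and 186 CPM in Snord67KO-1, and 94.1, 73.2 and 125 CPM in Snord67KO-2. It rose in Snord67KO-1 by 0.61 ± 0.20 on the log2 scale (edgeR adjusted p = 0.0343), a call that was lost without any 1 of the 3 WT libraries, without Snord67KO-1 replicate 3, with no filter and in DESeq2.

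None of the 5 MCM helicase genes tested passed in either clone, beside 20.2% of all genes tested in Snord67KO-1 and 3.98% in Snord67KO-2. Mcm7 was not tested. Mcm6, the most abundant of them, had 38.6 ± 6.65 CPM in WT, 46.3 ± 11.02 CPM in Snord67KO-1 and 41.3 ± 16.3 CPM in Snord67KO-2, and log2 fold changes of 0.01 ± 0.25 and 0.14 ± 0.29 (edgeR adjusted p = 0.992 and 0.858). Mcm5 had 33.8 ± 15.5, 30.2 ± 1.93 and 34.3 ± 13.8 CPM (SD, n = 3). The log2 fold changes of the 5 tested MCM genes ran from -0.74 (Mcm2) to 0.01 (Mcm6) in Snord67KO-1 and from -0.06 (Mcm4) to 0.21 (Mcm2) in Snord67KO-2. None of the 5 had a raw p under 0.05 against WT, DESeq2 called none, and their standard errors ran from 0.25 to 0.41 on the log2 scale.

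Rrm2 encodes the small subunit of ribonucleotide reductase, the subunit made chiefly in S phase. It had 10.9, 15.7 and 16.0 CPM in WT, 32.7, 32.5 and 33.5 CPM in Snord67KO-1, and 14.1, 24.4 and 21.3 CPM in Snord67KO-2. It rose in Snord67KO-1 by 0.95 ± 0.32 on the log2 scale (edgeR adjusted p = 0.0419), a call that held in 11 of 22 alternative fits. It reached the count minimum only with Snord67KO-1 libraries, and the call was lost with no filter, with a minimum of 50 summed counts and in DESeq2. Leaving out any 1 of the 3 Snord67KO-1 libraries, WT replicate 1 or 2, or Snord67KO-2 replicate 2 or 3 also ended it. Rrm1, the large subunit, had 59.7, 61.0 and 44.8 CPM in WT, 56.4, 67.1 and 39.3 CPM in Snord67KO-1, and 42.4, 16.3 and 37.8 CPM in Snord67KO-2, and did not pass (log2 fold change -0.30 ± 0.27 and -0.81 ± 0.33, edgeR adjusted p = 0.467 and 0.192).

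Pcna and Dnmt1, the maintenance DNA methyltransferase that follows the fork, were lower in Snord67KO-1, and in both genes 1 position held over 50% of the counts of WT replicate 2. Pcna had 59.7, 117 and 56.0 CPM in WT, 49.0, 50.8 and 49.5 CPM in Snord67KO-1, and 32.9, 65.1 and 63.8 CPM in Snord67KO-2. Its log2 fold change in Snord67KO-1 was -0.89 ± 0.26 (edgeR adjusted p = 0.0187). Dnmt1 had 71.9, 106 and 76.8 CPM in WT, 54.9, 71.2 and 46.6 CPM in Snord67KO-1, and 56.5, 51.5 and 87.4 CPM in Snord67KO-2, with a log2 fold change in Snord67KO-1 of -0.83 ± 0.24 (edgeR adjusted p = 0.0167). For each gene, 1 position in the coding sequence had most of the excess of WT replicate 2, with 40 of its 75 counts for Pcna and 38 of its 68 for Dnmt1. With the top position of every gene removed, the values in Snord67KO-1 were -0.49 ± 0.24 (edgeR adjusted p = 0.128) for Pcna and -0.56 ± 0.22 (edgeR adjusted p = 0.0543) for Dnmt1, and neither passed. Without WT replicate 2 the Dnmt1 call held and the Pcna call was lost. Both were lost without Snord67KO-1 replicate 1, without its replicate 3, with DESeq2, with marked positions included and with scaling by library totals, where the values were -0.64 and -0.57.

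Such positions recurred, and the sequences around the strongest are shown because the bases after the counted end bear on how the counts arose. A position in the table is the last base of a fragment, and the ligated linker follows it. The 6 bases that follow in the transcript matched the start of that linker at 4.72 of 6 on average for 19337 marked positions and at 1.56 of 6 for 19508 unmarked positions. Each line gives 30 bases of the spliced transcript from GENCODE M21 on GRCm38, 5′ to 3′ in the gene's direction, with the counted base in capitals.
Ncapg, chromosome 5, position 45674415, coding: gttagacgtgcagtgttatCttgtattgca
Ncapg, chromosome 5, position 45674414, coding: agttagacgtgcagtgttaTcttgtattgc
Pcna, chromosome 2, position 132249856, coding: ctgttcacctaacgtttgcTctgaggtacc
Dnmt1, chromosome 9, position 20912267, coding: ggtgtcagagcccaaagagCctgaggcagc
Rrm1, chromosome 7, position 102459527, coding: ggaagagcaaccagcagaaCctgggaacca
Ccnd1, chromosome 7, position 144930262, 3′ UTR, marked: ttgcgaagccagctgcagtGctgtaggccc
Cdk1, chromosome 10, position 69340870, coding, marked: acacacacgaggtagtgacGctgtggtacc
Ccnd1, chromosome 7, position 144931790, 3′ UTR, marked: agagagatgctggtttttgCctgaaggccc

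The bases after the counted one matched the linker at 4 of 6 for the first Ncapg position, for Pcna and for Dnmt1, at 2 of 6 for the second Ncapg position, at 3 of 6 for Rrm1, and at 6, 5 and 5 of 6 for the marked positions in the order shown. The first Ncapg position, in the condensin subunit CAP-G, held 348 of that gene's 591 unmarked counts. It had 15, 249 and 2 counts in WT, 21, 56 and 1 in Snord67KO-1, and 0, 1 and 3 in Snord67KO-2. WT replicate 2 and Snord67KO-1 replicate 2, the libraries with the highest share of counts at marked positions, were thus the highest of their genotypes. The Ncapg total was 51.5, 484 and 20.8 CPM in WT, and without that position it was 31.2, 93.9 and 17.6 CPM in WT, 52.0, 71.2 and 72.8 CPM in Snord67KO-1, and 37.7, 38.0 and 16.5 CPM in Snord67KO-2. The part of priming at such sites in any member's total was not tested.

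**Figure D4:**
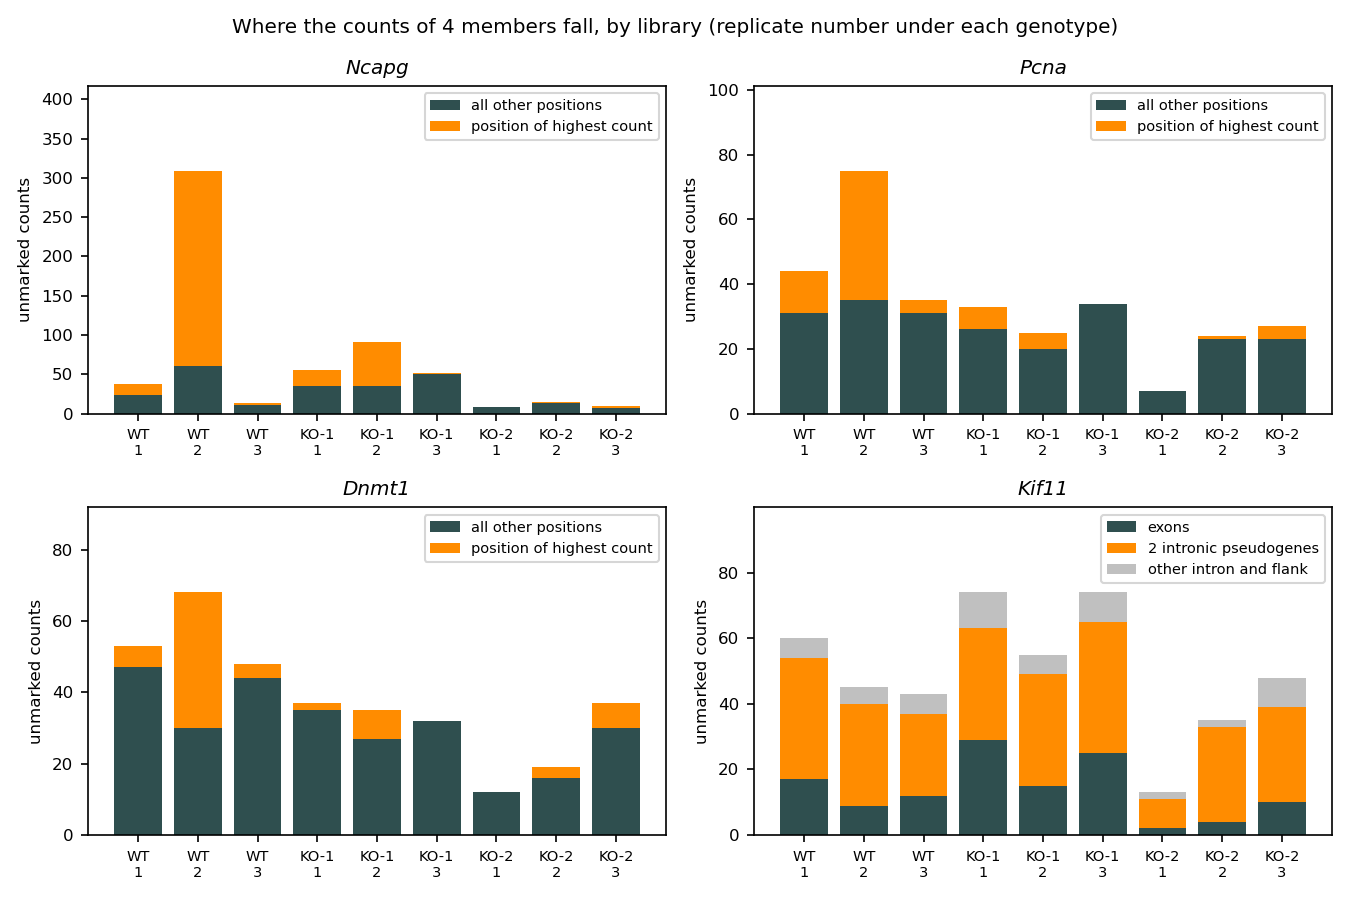
Unmarked counts in each library (stacked bars; vertical axis from 0) for Ncapg, Pcna and Dnmt1, divided into the position with the highest count in the gene and all other positions, and for Kif11, divided into exons, 2 intronic pseudogenes and the rest. WT replicate 2 holds 249, 40 and 38 counts at the top position of the first 3 genes, and the pseudogenes exceed the exons of Kif11 in every library.

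Position by position, the table was too thin for a test of most members. Among 2092 positions with enough counts, 3 lay in members (the marked ones in Ccnd1 and Cdk1 at 144930262 and 69340870, and Ncapg at 45674415). None passed in the average of both clones against WT by edgeR's quasi-likelihood test, beside 0.0478% of all positions. Of the 3, the Ncapg position had a raw p under 0.05. The edgeR adjusted p was 0.471 for Ncapg, 0.591 for Ccnd1 and 0.526 for Cdk1, and no alternative fit called a position in a member, although DESeq2 gave no adjusted p for the Cdk1 position. The other members' positions were not tested, and the counts were not set against control libraries, so these values do not measure 2′-O-methylation by themselves.

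The second comparison was between the clones. In Snord67KO-2 against Snord67KO-1, 2 of 29 members passed, both lower in Snord67KO-2, beside 6.38% of all genes (3.55% lower and 2.84% higher). Ccna2 was lower by -1.10 ± 0.26 on the log2 scale (edgeR adjusted p = 0.0135) and Smc4 by -0.96 ± 0.20 (edgeR adjusted p = 0.00733). Both calls were lost without Snord67KO-2 replicate 2, and that of Ccna2 also without Snord67KO-2 replicate 1 and in DESeq2. Mki67 differed by -0.85 ± 0.28 (edgeR adjusted p = 0.0812) and Cenpe by -0.72 ± 0.28 (edgeR adjusted p = 0.130). Of the members that were high in Snord67KO-1, Ccnb1 differed by -0.11 ± 0.29, Aspm by -0.02 ± 0.39 and Prc1 by -0.42 ± 0.31 (edgeR adjusted p = 0.889, 0.991 and 0.477). With no test involved, all 3 Snord67KO-1 libraries lay above all WT libraries in CPM for 14 of the 29 members, beside 27.8% of all genes tested, and all 3 Snord67KO-2 libraries did so for 5 (Ccnb1, Ccnd1, Prc1, Aspm and Smc4), beside 10.1%.

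Other genes of the same processes were read from 3 lists. Of 56 other mitosis genes, 32 were tested, and 6 were higher and 1 lower in Snord67KO-1 (21.9% called, beside 20.2% of all genes), 1 higher in Snord67KO-2 (3.13%, beside 3.98%), and 4 higher and 1 lower in the average of both clones (15.6%, beside 12%). These shares were near those of all genes. The 6 that were higher in Snord67KO-1 reached 10 counts in 3 libraries only with Snord67KO-1 libraries, where they were high, so their calls are a description. Hmmr, a spindle protein that binds hyaluronan, had 8.14, 3.13 and 6.40 CPM in WT, 40.1, 48.8 and 34.9 CPM in Snord67KO-1, and 18.8, 21.7 and 28.4 CPM in Snord67KO-2. On 12 counts in WT and 24 in Snord67KO-2, it rose in both clones (log2 fold change 2.47 ± 0.39 and 1.97 ± 0.47, edgeR adjusted p = 0.000183 and 0.0201). Ccnb2, the second B-type cyclin, rose with Ccnb1 in Snord67KO-1 (1.48 ± 0.34, edgeR adjusted p = 0.00375) and had 1.34 ± 0.39 in Snord67KO-2 (edgeR adjusted p = 0.0607). Ckap2 and Ndc80, a spindle protein and a kinetochore subunit, rose in Snord67KO-1 by 1.56 ± 0.40 and 1.34 ± 0.37 on the log2 scale (edgeR adjusted p = 0.00834 and 0.0145). Wapal, the factor that releases cohesin, fell in Snord67KO-1 (-1.28 ± 0.24, edgeR adjusted p = 0.001).

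Of 46 other replication genes, 24 were tested, and 1 was higher and 2 lower in Snord67KO-1 (3 of 24, beside 20.2% of all genes) and 1 lower in Snord67KO-2 (4.17%, beside 3.98%). Orc2, a subunit of the origin recognition complex, had 37.5 ± 10.1 CPM in WT, 17.0 ± 3.13 CPM in Snord67KO-1 and 34.9 ± 11.5 CPM in Snord67KO-2 (SD, n = 3), and fell in Snord67KO-1 (log2 fold change -1.38 ± 0.30, edgeR adjusted p = 0.00293). Timeless, a fork protection factor, was lower in both clones, but 54 of its 76 WT counts were in replicate 2. Its ratio to WT in CPM was 0.299 (95% exact interval from counting alone 0.175 to 0.489) in Snord67KO-1 and 0.0786 (0.0159 to 0.239) in Snord67KO-2, the latter on 3 counts. Uhrf1, which recruits Dnmt1 to replicated DNA, was higher in Snord67KO-1 (1.37 ± 0.45, edgeR adjusted p = 0.0388), and it too reached the count minimum only through Snord67KO-1.

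The list of G1 control genes and cell cycle inhibitors had 14 of 20 genes tested, with 2 higher and 3 lower in Snord67KO-1 (35.7% called, beside 20.2% of all genes) and 1 lower in Snord67KO-2 (7.14%, beside 3.98%). Myc, a transcription factor that drives growth, had 129, 158 and 147 CPM in WT, 29.7, 44.7 and 42.2 CPM in Snord67KO-1, and 51.8, 86.8 and 75.6 CPM in Snord67KO-2. Its genotypes did not overlap, and it fell in both clones (-2.17 ± 0.23 and -0.95 ± 0.23, edgeR adjusted p = 3.27e-06 and 0.0220). The other lower genes in Snord67KO-1 were Ccnd2 and Tfdp1, which did not pass in Snord67KO-2. The 2 higher genes were the inhibitors Cdkn1a and Cdkn2c. Cdkn1a, which encodes p21, reached the count minimum only through Snord67KO-1, so its call is a description. It had 1 count over the WT libraries, 37 counts in Snord67KO-1 and 4 counts in Snord67KO-2, a ratio to WT in CPM of 40.0 (95% exact interval from counting alone 6.74 to 1621) for Snord67KO-1 and 7.97 (0.789 to 392) for Snord67KO-2. Cdkn2c, an inhibitor of the cyclin D kinases, had 13.0 ± 6.49, 46.2 ± 5.58 and 29.4 ± 14.7 CPM, and its rise in Snord67KO-1 was 1.55 ± 0.36 (edgeR adjusted p = 0.00493).

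The members also differed in their promoters in a way that the choice by name did not use. RefSeq promoters on GRCm38.p6 (250 bases before to 50 after the start) were at hand for 30 of the 36 genes. They were searched on both strands for the cell cycle homology region (CHR, which is TTTGAA in its main form, and the variant form TTCGAA was taken too), known from genes of G2 and M phase, for the CCAAT box by that name, and for E2F letters, known from genes of S phase. The E2F letters were TTCCCGC as the first form, TTGGCGC as the second form, TTGCCGC as the third form and TTCGCGC as the fourth form, and the second and the fourth can overlap. CHR letters were in 18 of 20 promoters of mitosis members (90.0%), in 18.8% of those of replication and nucleotide supply, and in 19.2% of all 32851 promoters. E2F letters were in 25.0%, 62.5% and 9.57%, and CCAAT in 90.0%, 68.8% and 37.4%. The promoters without CHR letters among the mitosis members were those of Ccnb1 and Cenpe. These shares are over promoter entries, 20 for 19 mitosis genes and 16 for 11 replication and nucleotide genes. A gene with several entries thus counts more than once. The 3 entries with CHR letters in the second set were of Mcm2, Mcm7 and Dnmt1.

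**Figure D5:**
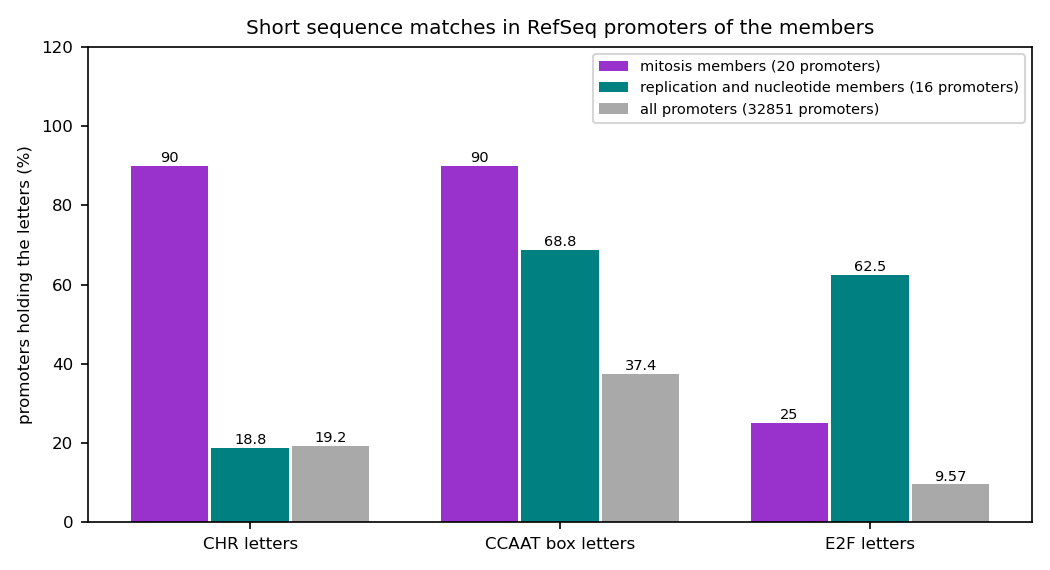
Share of RefSeq promoters (vertical axis, percent) that hold CHR, CCAAT or E2F letters, for the 20 promoters of mitosis members, the 16 of replication and nucleotide members, and all 32851. In that order the promoters are of 19, 11 and 27025 genes. CHR letters stand at 90.0% in the first set and near the share of all promoters in the second (18.8% against 19.2%), and E2F letters at 62.5% in the second.

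Windows of 30 bases are shown for the members past the threshold in Snord67KO-1 that hold CHR letters among the mitosis genes, and for Rrm2, Dnmt1, Mcm5 and Mcm6 with E2F letters, since the shares of those letters differed between the mitosis and the replication members. They run 5′ to 3′ in the direction of transcription on GRCm38.p6, with the matched letters in capitals.
Aspm, CHR, plus strand, chr1:139454767-139454796: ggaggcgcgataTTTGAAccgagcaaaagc
Cenpf, CHR, minus strand, chr1:189688067-189688096: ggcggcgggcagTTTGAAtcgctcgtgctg
Mki67, CHR, minus strand, chr7:135716460-135716489: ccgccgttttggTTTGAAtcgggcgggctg
Prc1, CHR, plus strand, chr7:80294434-80294463: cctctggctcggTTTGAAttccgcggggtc
Top2a, CHR, minus strand, chr11:99024195-99024224: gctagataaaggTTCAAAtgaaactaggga
Rrm2, E2F, plus strand, chr12:24708008-24708037: caccaacctcaGCGGCAAcgcccgcccggc
Dnmt1, E2F, minus strand, chr9:20952763-20952792: gcaagatgccaGCGCGAAcagctccagccc
Mcm5, E2F, plus strand, chr8:75109346-75109375: cgccaagaactTTCGCGCcaaaacgtccag
Mcm6, E2F, minus strand, chr1:128359796-128359825: ggcgtatgcttTTGGCGCgaaaagtgcgtg

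In these windows the CHR letters lay near the start site for Aspm, Cenpf, Prc1 and Top2a (6 and 2 bases after it for the first pair, 5 and 30 before the upstream and the downstream start of Prc1, and 23 before it for Top2a) and 98 bases before it for Mki67. Where a promoter held several CHR matches, the one nearest the start site is shown. Top2a also held matches 179, 140 and 120 bases before it, and Mki67 another 116 bases before it. Smc4 and Ccna2, also past the threshold, had no promoter entry. Letters of this length occur in many promoters, as the shares over all promoters show, and the data hold no measurement of binding at them.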

How the data were processed

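The authors enriched poly(A) RNA, fragmented and oxidized it, ligated a linker to surviving 3′ ends and deposited raw counts of read ends per genomic position, with no normalization. The submitters' processing notes name cutadapt, STAR and mm10. The meaning of the mispriming mark, the strand rule and duplicate removal are not given in the sources used here.

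Counts at unmarked positions were summed per gene. Genes reaching 10 counts in 3 or more of the 9 libraries were tested with edgeR 4.0.16 (quasi-likelihood, TMM, Benjamini-Hochberg, adjusted p under 0.05) in R 4.3.3. The fit used all 3 genotypes and had been tested on simulated data. There, changes of 2-fold were called in 28% of cases in Snord67KO-1 and 16% in Snord67KO-2. Changes of 4-fold were called in 91% and 84%. False calls made up 7.03% and 6.54% of the calls, and 8.27% for the average of both clones. Most changes of 2-fold would thus be missed, so a gene that was not called may still differ. Single positions were tested with edgeR in the same way. DESeq2 1.42.0, other scalings, filters and count units, left-out libraries and the replicate number as a block were alternatives. CPM is counts per 1000000 counts of the library, marked positions included in the total, so ratios of CPM and TMM-scaled fold changes can differ. Intervals and replicate tests cover counting error and the spread between these libraries.

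The members and lists were chosen with earlier results of these data known. Named with values were all members past the threshold, the 2 most abundant of each role group, the 8 strongest positions, and list genes past the threshold, at most 6 for each list. Ccnd2 and Tfdp1 also passed and are named without values. List genes not found included Cdkn1c and Lum, and Wapl is Wapal in the table. A further list gene is not reported here. Placement used GENCODE M21 on GRCm38.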

Additional observations from a re-analysis of the deposited data

Results flagged for a closer look

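Smc4, Ccna2, Myc, Orc2 and Anapc1 differed between the knockout clones by the direct test of Snord67KO-2 against Snord67KO-1 (edgeR's quasi-likelihood test, adjusted over 5748 genes). Smc4 and Ccna2 were lower in Snord67KO-2, with log2 differences of -0.96 ± 0.20 and -1.10 ± 0.26 (SE; edgeR adjusted p = 0.00733 and 0.0135), and the 3 libraries of one clone did not overlap those of the other for either gene. Myc was higher in Snord67KO-2 by 1.21 ± 0.26 (edgeR adjusted p = 0.00909), Orc2 by 1.32 ± 0.35 (edgeR adjusted p = 0.0258), and Anapc1, a subunit of the anaphase-promoting complex, by 1.08 ± 0.28 (edgeR adjusted p = 0.0218).

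Counts at marked positions are outside the comparisons above. Ccnd1 had 441 of them, more than any other member, with 65, 191 and 14 in WT, 59, 63 and 11 in Snord67KO-1, and 5, 11 and 22 in Snord67KO-2. Cdk1 had 154, of which 97 were in WT replicate 2. For both genes, replicate 2 was the highest library of WT and of Snord67KO-1.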

How the results depend on the processing

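Over 22 alternative fits (18 for Aspm), none of the 20 calls of a member changed direction. Ccnb1 and Smc4 in both the average of the clones and Snord67KO-1, and Cenpf and Prc1 in Snord67KO-1, passed in every alternative. DESeq2 called 3, 5, 0 and 1 members (clone average against WT, then Snord67KO-1 alone, then Snord67KO-2 alone, then between the clones) where edgeR called 5, 12, 1 and 2. Over all 5748 genes tested, DESeq2 called 313, 571, 110 and 128 and edgeR 691, 1159, 229 and 367. With no filter the average gave 8, of which Dnmt1, Ncapg and Pcna were lower, beside 818 of 19344 genes. With exon positions alone, an alternative chosen after seeing the data, it gave 9, with Dnmt1 lower, beside 625 of 4067 genes. In Snord67KO-2 against WT, counting marked positions gave 0, beside 196 of 6291 genes. Counting positions with a count gave 2, beside 392 of 5499 genes. Between the clones, scaling by library totals gave 4, all lower in Snord67KO-2, beside 449 of 5748 genes. Leaving out each library in turn gave 4 to 7, 8 to 12, 0 to 2 and 0 to 4 members, and 0 positions, in the same order. Over all genes these fits called 466 to 626, 573 to 1116, 78 to 270 and 103 to 543, of 5155 to 5747 tested. In the average, lower calls of Ncapg with Pcna or Dnmt1 appeared without WT replicate 1 or 3 or Snord67KO-1 replicate 2. Without WT replicate 2 and Snord67KO-1 replicate 2 together, also chosen after seeing the data, 4, 9, 1 and 2 members were called. Over all 5162 genes tested there, 462, 759, 244 and 351 were called. The cause of these changes was not tested. Same-numbered libraries of different genotypes correlated at -0.12 to 0.22 over 9 pairs, and 4 of 9 libraries correlated best with their own number. The highest values between genotypes were those of WT with Snord67KO-1, at 0.22 for replicate 2 and 0.18 for replicate 3. With 3 libraries for each genotype, these values cannot show whether the numbers mark a shared batch. With the replicate number as a block, 7, 13, 2 and 4 members were called, of which 2, 2, 1 and 4 were lower. Over all 5748 genes, 726, 1184, 262 and 377 were called there. The summed level of the members was 2017, 2774 and 1977 CPM (WT, Snord67KO-1, Snord67KO-2) when the total was taken as unmarked counts outside Rn45s, and 1723 ± 788, 2200 ± 68.5 and 1432 ± 195 CPM (SD, n = 3) with marked counts included. WT replicate 2 was above every Snord67KO-1 library in both. The intron share was 10.7% with principal transcripts. Depth limits the Snord67KO-2 values most, 3 counts being worth 7.09 to 14.1 CPM there against 4.07 to 4.80 CPM in WT.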
